A study of Mus musculus with 7 samples.

Results

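In LPL overexpression MS-1 endothelial cells, 173 genes that were all but silent in the control cells were expressed in every library. This number leaves out 15 genes by name, mainly pigment cell genes. A gene was taken when its reads summed to 3 or fewer over the 3 control libraries and reached at least 0.5 CPM (counts of a gene per 1000000 counted reads of the library) in each of the 4 LPL overexpression libraries. These 173 genes came from 49585 genes in the count files. The names left out were Tyr, Tyrp1, Dct, Mlana, Slc45a2, Slc24a5, Oca2, Sox10, Pax3, Mlph, Gpc1, Cspg4, Itga9, Prox1 and Vegfc, of which 14 met both thresholds and Prox1 did not. The genes were thus chosen by their measured read counts in all 7 libraries. Because the thresholds themselves compare the groups, the difference of these genes between LPL overexpression and control cells is given as a description, with no test. All 173 passed the edgeR quasi-likelihood test of that difference, where 43.2% of all 13639 tested genes did (21.9% higher and 21.3% lower), but the way they were chosen fixes this and nothing is read from it.

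MS-1 is an established mouse endothelial cell line. The control cells are labelled WT and were sequenced as 3 libraries. The other 4 libraries come from the same line overexpressing lipoprotein lipase (LPL), the enzyme that hydrolyses the triglycerides of circulating lipoproteins at the vessel wall. Both groups were grown in DMEM, and total RNA was made into stranded libraries. The labels give no vector, promoter, species of the LPL sequence, clone or time for the overexpressing cells, and name no control carrying an empty vector. They do not say whether replicates came from separate cultures, so the spread between libraries may be technical.

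Genes of a differentiated lineage are commonly kept silent in other cells by closed chromatin and DNA methylation, and lineage transcription factors such as MITF and SOX10 open them in pigment cells. Melanocytes and Schwann cells, the glia of peripheral nerve, both descend from the neural crest and share part of their gene programme. Many ion channel, synapse and axon guidance genes are used in neural crest derivatives as well as in neurons, so membership of such a family does not name a single cell type.

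Each library held between 24328418 and 29210847 counted reads. Lpl, the targeted gene, had 1, 1 and 6 reads in the controls and between 10867 and 12753 in the LPL overexpression libraries. The endothelial label was checked on a marker list: 28 endothelial identity genes summed to 15782 to 15805 CPM in controls and to 13528 to 13696 CPM with LPL overexpression. LPL overexpression replicate 4 stood apart in the interferon-induced factor gene Irf1, with 289 CPM against 19.4 to 22.2 CPM in the other LPL overexpression libraries. Without that replicate the thresholds took 178 genes. Leaving out a library only removes a condition, so all 173 stay by the rule and nothing is read from this.

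The 173 genes together summed to 699.9, 652.8, 670.7 and 686.4 CPM in LPL overexpression replicates 1 to 4 and to 1.28, 1.39 and 1.28 CPM in control replicates 1 to 3. The 2 groups do not overlap, as the thresholds require. Over the LPL overexpression libraries the sum was 677 ± 20.3 CPM (SD, n = 4). Of the 15 left-out genes, the 14 that met both thresholds summed to 1138, 1097, 1124 and 1146 CPM in these 4 libraries. They are mainly pigment cell genes. The thresholds required these 14 genes, like the 173, in each LPL overexpression library, so nothing is read from finding both sets there. The ratio of the sum of the 173 to that of the 14 lay between 0.595 and 0.615. The part of pigment cell transcripts in the levels of the 173 genes was not tested. In bulk RNA, a small number of cells with a high level and many cells with a low level cannot be told apart.

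Of the 173 genes, 109 had no read in any control, 32 had 1 read, 20 had 2 and 12 had 3. This makes 63.0% with no control read. A count of 3 reads over the 3 controls corresponds to 0.0366 CPM, and this floor is used for the lower bounds of fold differences. Such bounds cover counting error only.

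The same thresholds applied with the groups exchanged took no gene. There were 32374 genes with 3 or fewer control reads, and 187 of them, 0.578%, reached 0.5 CPM in each LPL overexpression library before any name was left out. Conversely, 31030 genes had 3 or fewer reads over the LPL overexpression libraries, and the highest of their lowest control levels was 0.142 CPM. Leaving out control replicate 2 gave 1 gene with the groups exchanged. The LPL overexpression group has 4 libraries and the controls 3, so the limit of 3 reads was stricter for the former.

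**Figure D1:**
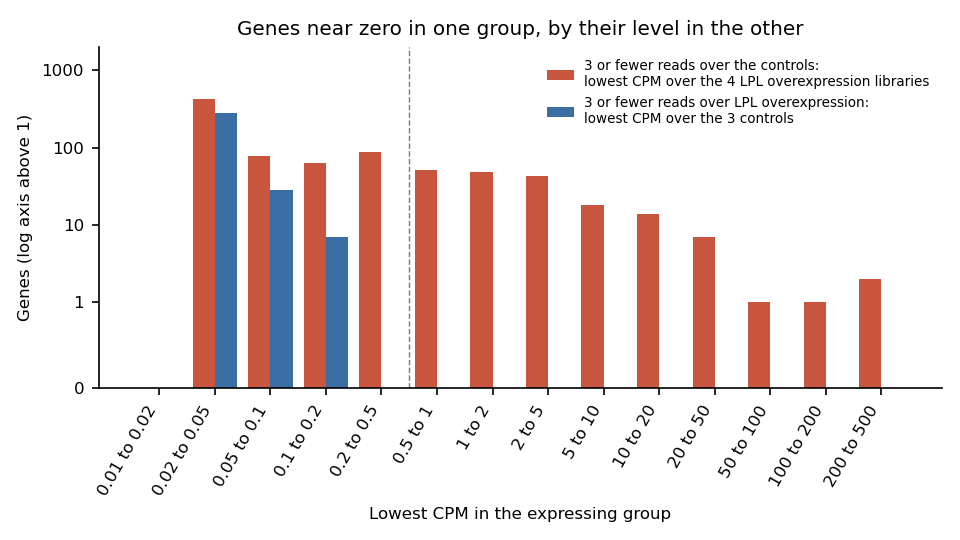
Genes with 3 or fewer reads over all libraries of one group (vertical axis, number of genes, log above 1), binned by their lowest CPM over the libraries of the other group (horizontal axis). Red bars are genes near zero in controls and blue bars genes near zero with LPL overexpression, with the left-out genes included; right of the dashed line at 0.5 CPM stand 187 red genes and no blue gene.

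Most of the 173 genes were expressed at a low level. The mean over the LPL overexpression libraries ran from 0.555 to 31.2 CPM with a median of 2.11 CPM. There were 17 genes at 10 CPM or more, 19 between 5 and 10, 99 between 1 and 5, and 38 under 1 CPM. The 10 genes of highest level held 29.5% of the reads of the whole set, and the top 25 held 52.4%. On the authors' length-corrected scale, TPM (transcripts per 1000000), the median was 1.48, and 112 genes reached 1 TPM or more. The highest gene per length was Tspan10 at 52.9 TPM, followed by Fkbp6 at 32.5 TPM, Mt2 at 31.0 TPM and Car14 at 30.4 TPM.

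**Figure D2:**
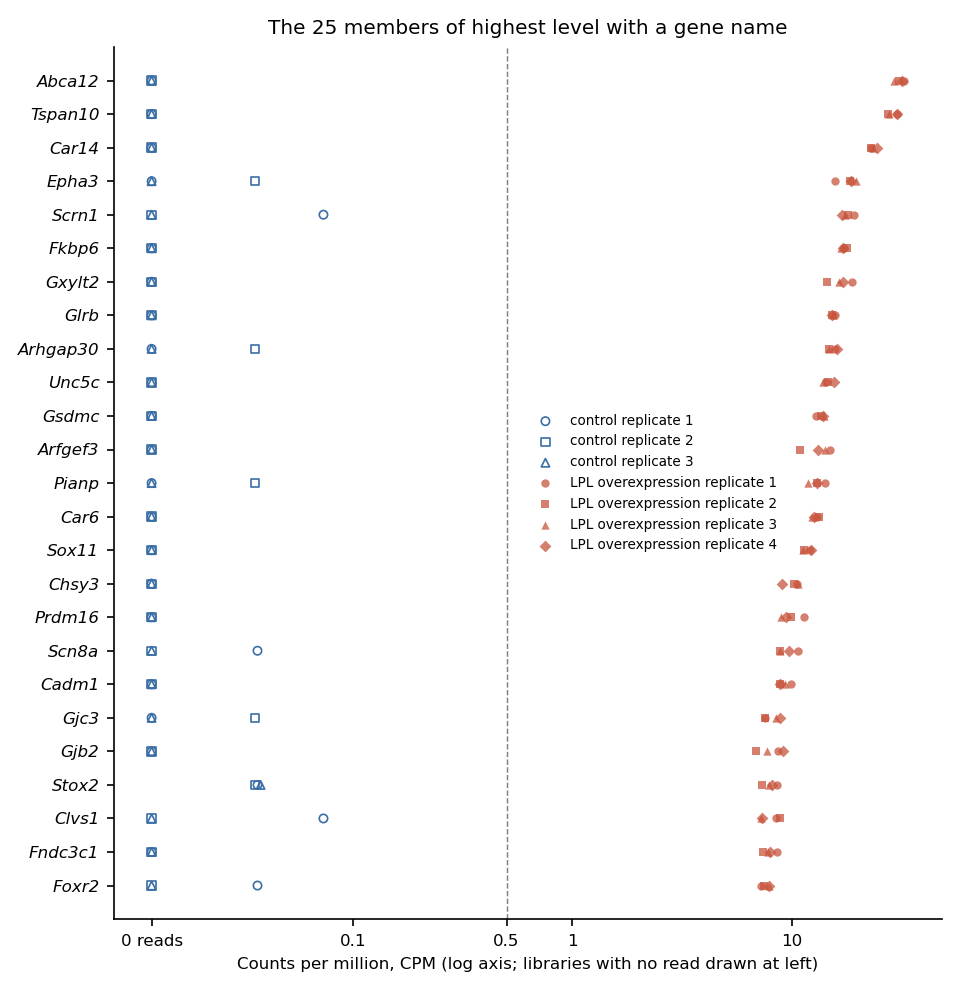
CPM (horizontal log axis) of the 25 genes of highest mean level that have a gene name, in each of the 7 libraries; open blue symbols are controls, filled red symbols LPL overexpression, and the dashed line is the 0.5 CPM threshold. Libraries with no read stand at the left edge; every LPL overexpression library of these genes lies at 6.88 CPM or above, and control symbols away from the edge are single reads or pairs of reads.

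By annotation, 167 of the 173 genes were protein-coding. Of the other 6, A830019P07Rik, Gm20618 and Eif2c5 are long intergenic RNAs, RP24-264F17.5 is unclassified, Gm5340 is a processed pseudogene and 6530402F18Rik a processed transcript. Predicted, clone or Riken names made up 9 of the 173, or 5.20%, against 52.1% of all genes in the files. The genes lay on all autosomes and the X chromosome. Chromosome 6 carried the most, 19 genes or 11.0%, against 5.26% of the 13639 genes with enough reads to test.

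Promoter sequence was compared for the 136 genes with a promoter in RefSeq (GRCm38.p6, the mm10 assembly), as windows of 300 bases around the start. Mammalian promoters are commonly divided into CpG-rich ones, typical of housekeeping and developmental genes, and CpG-poor ones, typical of genes of a specialised cell type. The median ratio of observed to expected CpG was 0.604 in the 136, against 0.776 in 9608 other tested genes and 0.542 in all 19039 matched promoters. A ratio of at least 0.6 was found in 50.7%, 74.5% and 46.2% of these sets, while the median GC content was 61.0%, 61.3% and 55.7%. The set thus held both kinds of promoter, and 3 are shown to make the contrast visible. Tspan10, a tetraspanin gene of pigment cells, has the lowest CpG ratio of the top 25 genes with a promoter (0.0541, 1 CG). Trim63, the muscle ubiquitin ligase MuRF1, stands at 0.289 with 7 CG. Scn8a, a neuronal sodium channel gene, has the highest ratio of the top 25, 1.05 with 38 CG. In Tspan10 (chr11:120442381-120442680, plus strand) and Trim63 (chr4:134314870-134315169, plus strand) capitals mark TCATGTG or its reverse complement CACATGA, and in Scn8a (chr15:100870395-100870694, plus strand) capitals mark each CG.
Tspan10: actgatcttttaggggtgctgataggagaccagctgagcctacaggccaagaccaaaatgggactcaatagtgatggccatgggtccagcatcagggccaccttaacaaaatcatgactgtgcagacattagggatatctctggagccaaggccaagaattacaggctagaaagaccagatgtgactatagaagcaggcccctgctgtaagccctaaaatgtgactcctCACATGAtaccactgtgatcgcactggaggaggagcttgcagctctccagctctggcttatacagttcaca
Trim63: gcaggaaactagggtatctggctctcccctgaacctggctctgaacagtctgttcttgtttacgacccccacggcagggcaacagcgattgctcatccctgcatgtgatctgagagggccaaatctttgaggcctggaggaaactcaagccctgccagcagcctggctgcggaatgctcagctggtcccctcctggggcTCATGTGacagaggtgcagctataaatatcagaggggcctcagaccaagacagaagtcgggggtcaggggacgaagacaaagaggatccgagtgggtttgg
Scn8a: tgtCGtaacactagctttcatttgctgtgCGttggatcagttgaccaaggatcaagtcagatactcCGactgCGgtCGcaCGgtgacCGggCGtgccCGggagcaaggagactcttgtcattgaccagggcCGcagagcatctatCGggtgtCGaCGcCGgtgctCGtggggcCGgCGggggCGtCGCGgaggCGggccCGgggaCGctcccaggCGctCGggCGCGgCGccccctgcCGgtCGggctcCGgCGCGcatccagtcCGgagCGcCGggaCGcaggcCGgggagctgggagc

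The motif CATGTG, read on either strand (CACATG), is the core of the E-box to which MITF and related factors bind. It was present in 18 of the 136 promoters, 13.2%, against 8.32% of the other tested genes and 11.7% of all matched promoters. The longer TCATGTG, which contains CATGTG, was in 5 of them, 3.68%, against 2.09% and 3.15%. The palindromic E-box CACGTG was in 8.09%, against 10.4% and 7.75%. The SOX family cores ACAAAG and AACAAT, on either strand, were in 8.82% and 3.68%, against 13.2% and 5.42% of the other tested genes and 17.3% and 9.58% of all promoters. The TATA box TATAAA was in 8.09%, against 6.58% of the other tested genes and 12.9% of all promoters. These are matches of letters in a window, given as a description, and 19 of the 136 RefSeq starts lay over 1 kb from the gene start used in the files.

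**Figure D3:**
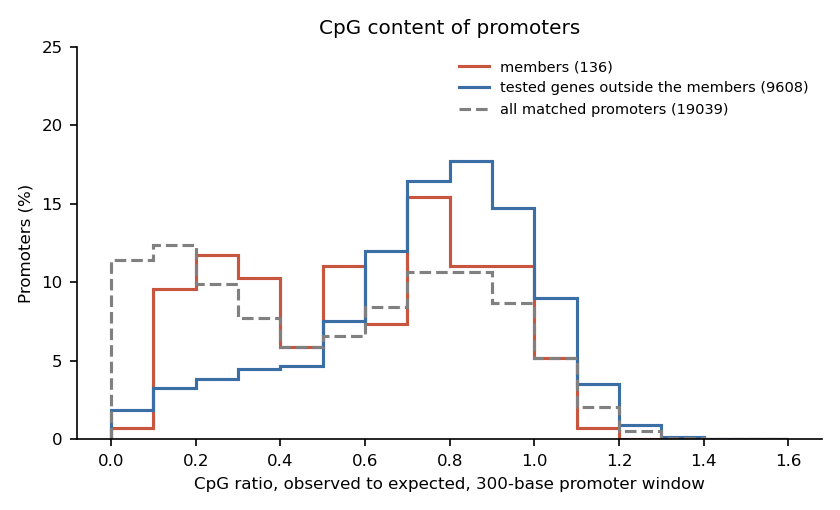
Share of promoters (vertical axis, percent) by ratio of observed to expected CpG in the 300-base window (horizontal axis), for the 136 genes with a promoter (red), 9608 other tested genes (blue) and all 19039 matched promoters (dashed). The red line is spread over low and high ratios, with 50.7% at 0.6 or more, where the blue line has 74.5%.

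Grouping the genes by what their products are known to do gave 14 groups and 17 genes without a group. The groups were made after the names were seen and have no test. Ion channels, synapse and neurotransmission formed the largest, with 23 genes summing to 97.4 ± 2.65 CPM (SD, n = 4). Transcription factors and chromatin followed with 20 genes and 73.5 ± 3.68 CPM. Lipid signalling and metabolism held 13 genes and 65.7 ± 1.96 CPM, and 5 further pigment cell genes held 62.1 ± 1.98 CPM. The smallest sums were those of cyclic nucleotide signalling, 5 genes with 9.11 ± 0.816 CPM, and of muscle and sarcomere, 4 genes with 8.78 ± 0.731 CPM.

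**Figure D4:**
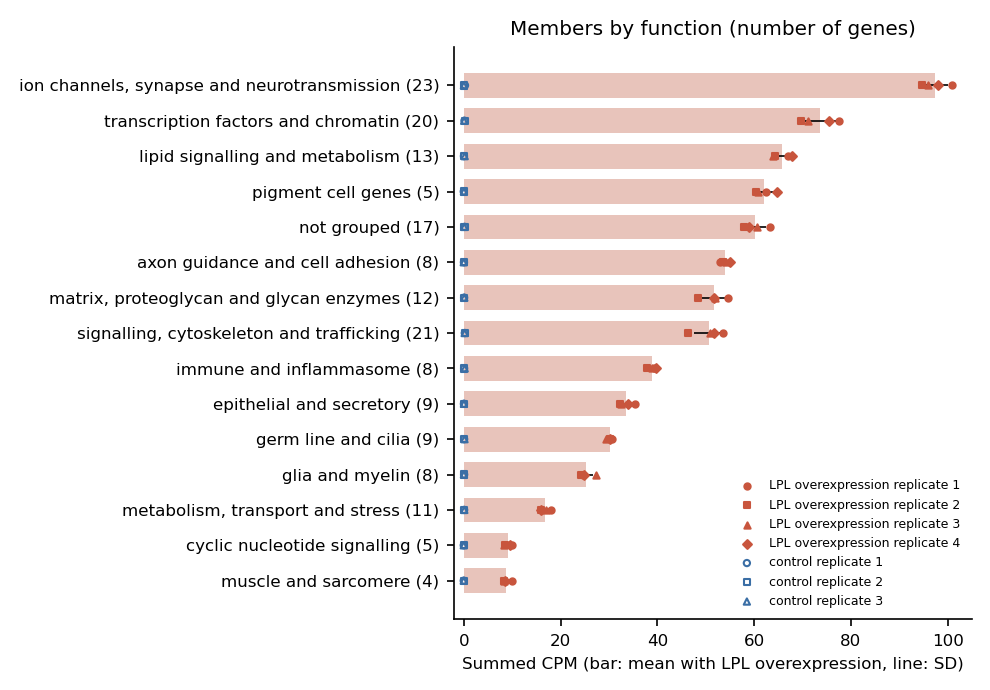
Summed CPM (horizontal axis) of the 173 genes by function group, with the number of genes in brackets; bars are the mean and lines the SD of the 4 LPL overexpression libraries, and points are single libraries. Controls lie at the left edge of every group, and the 4 LPL overexpression libraries lie close together, from 94.8 to 100.8 CPM in the ion channel and synapse group.

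Of the 5 pigment cell genes outside the left-out names, Tspan10 and Car14 were among the highest of the 173 and the other 3 were lower. Tspan10 (chr11:120442644-120446950) read 30.2, 27.5, 27.9 and 30.4 CPM in LPL overexpression replicates 1 to 4 and had no read in the controls, at least 791-fold higher with LPL overexpression. Car14 (chr3:95897768-95904691), a membrane-bound carbonic anhydrase, read 23.0, 23.0, 23.6 and 24.4 CPM with no control read. The antisense orientation of Car14 had 275 control reads and 302 with LPL overexpression. Gpr143, the ocular albinism receptor of the melanosome membrane, read 5.14, 5.07, 4.94 and 4.83 CPM, with 2 control reads. Rragd, a Rag GTPase of the lysosomal nutrient sensor and a known MITF target, read 2.30 to 2.77 CPM, and Adamts20, a protease needed for melanoblast survival in mouse skin, 1.77 to 2.69 CPM. For Adamts20, replicate 4 was the highest library at 2.69 CPM, against 1.77 to 2.02 CPM in the others. The libraries of Tspan10, Car14 and Gpr143 lay closer together for their level.

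The melanosome and pigment list had 3 of the 173 (Tspan10, Car14, Gpr143). Of its 30 other tested genes 20 rose, 1 fell and 9 did not pass the edgeR quasi-likelihood test. Over all genes tested, 21.9% rose and 21.3% fell, which is the background for the counts of every list and family below. The median log2 fold change of those 30 genes was 0.41, against -0.00 for all tested genes outside the set and the left-out names. Pmel, the melanosome fibril protein gene, rose from 0.936 ± 0.138 CPM (SD, n = 3) to 341 ± 11.7 CPM (SD, n = 4), with an edgeR adjusted p of 1.33e-61. Pmel missed the set because its controls were above 3 reads. Where a list has genes among the 173 or the left-out names, its other genes are those that remain after these were taken out.

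Transcription factor genes of several embryonic origins were present. Sox11 (chr12:27334264-27342574), a SOX factor of neural progenitors, read 12.2, 11.4, 11.2 and 12.3 CPM with no control read. Prdm16, a regulator of brown fat and of stem cells, read 11.3, 9.96, 8.99 and 9.40 CPM, also with no control read. Tfap2a, the AP-2 alpha factor of neural crest and skin, read 8.84, 7.12, 6.54 and 7.88 CPM with 2 control reads. Sox5, which modulates SOX10 activity in melanocytes, read 3.33 to 3.81 CPM with no control read. Foxr2, a forkhead factor gene of the X chromosome, read 7.28 to 7.91 CPM, and Stox2, a winged helix gene, 7.36 to 8.59 CPM at the limit of 3 control reads.

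Several patterning genes were lower, and these were chosen after their values were seen. Alx1, a homeobox factor of the facial mesenchyme, averaged 2.69 ± 0.513 CPM, Tbx4, the hindlimb T-box factor, 2.20 ± 0.265 CPM, and Lmx1b, a factor of the dorsal limb, 1.29 ± 0.138 CPM. Hoxa11 averaged 1.83 ± 0.223 CPM with no control read, although its cluster was active in controls. There Hoxa9 stood at 14.2 ± 1.25 CPM and Hoxa10 at 12.9 ± 0.563 CPM. Zic2 and Zic5, neighbours on chromosome 14 with starts facing apart, averaged 1.15 ± 0.0926 and 0.904 ± 0.305 CPM. Zic1 and Zic4 did not exceed 4 reads in any library. A search by symbol was made for homeobox, paired box, T-box, Sox and forkhead genes, whose patterns do not take Lmx1b. It found 6 of the 173, or 3.47%, and 0.456% of all genes in the files. These shares have unlike bases, as 52.1% of the files but 5.20% of the 173 had predicted, clone or Riken names. Of 72 other tested genes found by that search 16 rose and 25 fell, where 21.9% of all tested genes rose and 21.3% fell.

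The melanocyte lineage list had 2 of the 173, Tfap2a and Sox5. Of its 13 other tested genes 9 rose and 1 fell, where 21.9% of all tested genes rose and 21.3% fell. The median log2 fold change of those 13 was 0.73. Mitf, the master factor of melanocytes, rose from 2.37 ± 0.438 to 44.9 ± 0.973 CPM, and Mc1r, the melanocortin receptor, from 0.196 ± 0.0465 to 29.2 ± 0.644 CPM.

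Glial and myelin genes were 8 of the 173 and summed to 25.2 ± 1.35 CPM. Gjc3, the connexin of Schwann cells and oligodendrocytes, read 7.56, 7.60, 8.47 and 8.90 CPM with 1 control read. Cdh19, a cadherin of Schwann cell precursors, read 6.17, 5.92, 5.98 and 5.01 CPM with no control read. Mbp, myelin basic protein, read 2.14, 2.02, 1.69 and 1.78 CPM with no control read. Gpr37, a receptor of myelinating glia, read 1.95 to 2.61 CPM, and Bcan, the brain proteoglycan brevican, 1.78 to 2.73 CPM with 1 read in each control. Fabp7, the fatty acid binding protein of radial glia and Schwann cell precursors, was lower, at 0.723 to 1.03 CPM.

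On the Schwann cell and neural crest glia list, 4 genes (Gjc3, Cdh19, Mbp, Fabp7) were among the 173. Of 12 other tested genes 7 rose and 4 fell, where 21.9% of all tested genes rose and 21.3% fell. The median log2 fold change of those 12 was 1.56. Erbb3, the neuregulin receptor of Schwann cells and melanoblasts, rose from 0.0848 ± 0.0535 to 8.38 ± 0.799 CPM. Pmp22, a peripheral myelin gene that many other cells express too, fell from 152 ± 1.72 to 112 ± 4.57 CPM. In all, 9 of the 26 other listed genes had 3 or fewer reads in each group, and 5 of these had no read in any library.

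Ion channel and synapse genes made the largest sum. Glrb (chr3:80843599-80913660), the beta subunit of the inhibitory glycine receptor, read 15.7, 15.3, 15.4 and 15.3 CPM with no control read, at least 422-fold higher with LPL overexpression. Pianp, a membrane protein of neurons, read 14.3, 13.1, 11.8 and 13.0 CPM with 1 control read. Scn8a, the sodium channel whose CG-rich promoter is printed above, read 10.7, 8.83, 8.87 and 9.69 CPM with 1 control read. Kcnab2, an auxiliary subunit of voltage-gated potassium channels, read 6.58 to 7.87 CPM and Syt9, a calcium sensor of vesicle release, 3.63 to 4.01 CPM, neither with a control read. Slc6a17, a vesicular transporter of neutral amino acids, read 2.30 to 2.53 CPM, and Grik2, a kainate receptor subunit, 1.03 to 1.85 CPM. Clvs1, a lipid-binding protein of neurons, read 7.23 to 8.87 CPM with 2 control reads. It had 318 antisense reads in controls and 357 with LPL overexpression, and on the authors' counts of both orientations it averaged 2.08 CPM instead of 7.97 CPM.

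Voltage-gated and ligand-gated channel genes were 7 of the 173, or 4.05%, against 0.543% of all genes in the files. They included pore subunits for different ions: sodium (Scn8a, Scn1a), calcium (Cacna1c), the chloride channel subunit Glrb and the glutamate-gated Grik2. Predicted, clone or Riken names were 52.1% of the files and 5.20% of the 173, so these shares have unlike bases. Of 62 other tested channel genes 19 rose and 11 fell, where 21.9% of all tested genes rose and 21.3% fell. The median log2 fold change of those 62 was -0.00. Of the neuronal and synaptic list only Grik2 was among the 173. Of its 13 other tested genes 6 rose and 4 fell, and 23 of the 44 others had 3 or fewer reads in each group. The list includes Syt4, a synaptotagmin, which rose from 0.425 ± 0.126 to 54.5 ± 0.971 CPM, and Tubb3, a neuronal tubulin, which rose from 3.00 ± 0.353 to 24.8 ± 0.648 CPM.

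Axon guidance and adhesion genes were 8, with 54.0 ± 0.887 CPM in sum. Epha3 (chr16:63543538-63864158), a receptor for ephrin-A ligands, read 15.9, 18.4, 19.7 and 18.8 CPM with 1 control read. Unc5c (chr3:141465216-141834924), a repulsive netrin receptor, read 14.3, 14.7, 14.0 and 15.6 CPM with no control read, at least 401-fold higher. Cadm1, an adhesion molecule of synapses and epithelia, read 9.99, 8.83, 9.35 and 8.86 CPM with no control read. Robo1, the Slit receptor, chosen after its values were seen, averaged 3.07 ± 0.269 CPM. The 4 LPL overexpression libraries of each gene stayed within a narrow range, with replicate 1 the lowest for Epha3 and the highest for Cadm1.

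Lipid genes included the most abundant of all. Abca12 (chr1:71242276-71414910), the lipid transporter of keratinocyte lamellar granules, read 32.7, 30.8, 29.3 and 32.0 CPM with no control read, at least 853-fold higher. Per length it stood lower, at 6.93 ± 0.333 TPM (SD, n = 4), as its exons span 14808 bases. Sphk1, a sphingosine kinase, was the lowest of the 173 with 0.508 to 0.616 CPM and 3 control reads. Among lipid genes chosen after their values were seen, Enpp2, the autotaxin that makes lysophosphatidic acid, averaged 5.91 ± 0.0790 CPM, and Lpar5, a receptor for that lipid, 1.13 ± 0.211 CPM. Bdh1, a ketone body enzyme, averaged 6.35 ± 0.276 CPM, and Mgll, monoacylglycerol lipase, 2.28 ± 0.191 CPM. The list of extracellular lipid transport and lipid enzyme genes had no gene among the 173, and of its 15 tested genes 6 rose and 4 fell.

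Abca12 is also on the epithelial and keratinocyte list, where it was the only gene of the 173. None of the 6 other tested genes of that list rose and 3 fell, among them the keratin gene Krt18, from 31.0 ± 1.19 to 26.8 ± 0.801 CPM. No keratin gene was among the 173. Of other epithelial and secretory genes, Car6 (chr4:150187015-150201332), the carbonic anhydrase secreted in saliva, read 13.0, 13.4, 12.4 and 12.7 CPM with no control read. Gjb2, connexin 26 of skin and inner ear, read 8.63, 6.88, 7.75 and 9.15 CPM with no control read. Azgp1, a secreted glycoprotein, was lower and more variable, at 1.03, 0.548, 1.00 and 0.545 CPM. Cela1, a pancreatic elastase gene, read 0.508 to 0.763 CPM with 2 control reads, and of the 25 other islet and exocrine genes 20 had 3 or fewer reads in each group.

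Matrix and glycan genes were 12, led by 2 enzymes of sugar chains. Gxylt2 (chr6:100704734-100810913), which extends O-glucose on Notch, read 18.8, 14.5, 16.5 and 17.1 CPM with no control read. Chsy3, a chondroitin sulfate synthase, read 10.6, 10.3, 10.7 and 9.04 CPM, also with no control read. Col16a1 read 1.75 to 1.96 CPM with 1 control read, Col1a2, a chain of type I collagen, 1.19 to 1.44 CPM with 2, and Postn, periostin, 0.799 to 1.03 CPM with none. Of 5 other tested genes on the fibroblast and mural cell list 3 rose, including Col3a1 from 0.182 ± 0.0596 to 0.715 ± 0.0311 CPM. The whole list summed to 25.2 to 26.7 CPM in controls and 32.3 to 36.0 CPM with LPL overexpression.

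The group named immune and inflammasome held 8 genes, which summed to 38.9 ± 0.774 CPM. Arhgap30 (chr1:171388954-171410298), a GTPase activating protein of leukocytes, read 15.9, 14.8, 14.9 and 16.1 CPM with 1 control read. Gsdmc (chr15:63775968-63808759), a gasdermin that forms membrane pores, read 13.0, 13.6, 14.0 and 13.9 CPM with no control read. Its close relatives Gsdmc2, Gsdmc3 and Gsdmc4 had at most 3 reads in any library, though reads shared among such copies make each count uncertain. Tnfrsf19, a receptor of the tumour necrosis factor family, read 0.945 to 1.20 CPM with 3 control reads. Of the blood and immune cell list no gene was among the 173, and 25 of 32 had 3 or fewer reads in each group. Of its 3 tested genes 1 rose and 1 fell. Cd68, a lysosomal protein, rose from 73.5 ± 3.03 to 99.8 ± 4.40 CPM, and Fcer1g fell from 0.548 ± 0.128 to 0.309 ± 0.0704 CPM.

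Germ line genes were led by Fkbp6 (chr5:135291704-135350044), a chaperone of meiosis and of piRNA production, which read 17.3, 17.97, 16.8 and 17.2 CPM with no control read, at least 475-fold higher. Per length Fkbp6 ranked below Tspan10 alone. It was the only gene of the germ line and placenta list among the 173, and 30 of the 41 others had 3 or fewer reads in each group. Of 7 others tested 2 rose and 1 fell. Dnah7b, a dynein of cilia chosen after its values were seen, averaged 3.08 ± 0.303 CPM, and its relatives Dnah7a and Dnah7c had at most 2 reads in any library, with the same uncertainty of shared reads. Xlr3c averaged 1.02 ± 0.0799 CPM and has near-identical copies that also had reads, so its count is uncertain too. Xlr3a rose from 0.171 ± 0.0221 to 0.705 ± 0.283 CPM, and Xlr3b averaged 0.187 ± 0.0980 CPM with LPL overexpression.

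Muscle genes were few. Trim63, whose promoter is printed above, read 4.23, 3.94, 3.49 and 3.23 CPM with no control read. It was the only gene of the muscle list among the 173, and of 5 other tested genes none rose and 3 fell. Tnni1, slow skeletal troponin I, was one that fell, from 14.5 ± 0.750 to 8.92 ± 0.384 CPM.

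Of the metabolic and stress genes, 2 were sugar transporters of the same family, each with 1 control read. Slc2a5, the fructose transporter, read 1.92 to 2.34 CPM, and Slc2a3, a high-affinity glucose transporter, 1.13 to 1.61 CPM. Slc2a1, the main glucose transporter of endothelial cells, was at 233 ± 3.55 CPM in controls and 202 ± 9.87 CPM with LPL overexpression. Mt2, a metallothionein chosen after its values were seen, read 6.25, 4.96, 5.38 and 5.59 CPM with no control read, and its neighbour Mt1 rose from 0.221 ± 0.104 to 21.2 ± 0.861 CPM. On counts of both orientations Mt2 averaged 1.51 CPM. The glutathione transferase genes Gsta1 and Gm3776 averaged 0.992 ± 0.220 and 0.597 ± 0.0572 CPM and are close copies, so their split is uncertain. Qpct, the glutaminyl cyclase gene, was just inside the level threshold, at 0.508 to 0.781 CPM.

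Some of the highest genes belong to no such group or to cell signalling. Scrn1 (chr6:54501173-54566489), secernin 1, a regulator of exocytosis, read 19.3, 18.1, 17.5 and 17.0 CPM with 2 control reads, and it overlaps Wipf3, another of the 173, on the opposite strand. Arfgef3, a regulator of insulin granules, read 15.04, 10.9, 14.3 and 13.2 CPM, and Fndc3c1, a gene with fibronectin domains, 7.39 to 8.55 CPM, neither with a control read. Rab11fip4, an effector of recycling endosomes, read 2.76 to 3.01 CPM with no control read. The transcript 4932411E22Rik, listed under a Riken name, read 12.8, 10.9, 11.9 and 12.2 CPM with no control read.

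The remaining marker lists held few of the 173 or none. Of the MITF target list outside pigment synthesis, Rragd was among them, and of its 17 other tested genes 10 rose and 4 fell, with the receptor gene Met going from 93.2 ± 2.09 to 193 ± 3.10 CPM. The endothelial identity list had none, and of its 26 tested genes 3 rose and 19 fell. Thbd, thrombomodulin, was one that fell, from 589 ± 13.9 to 323 ± 8.39 CPM, and Pecam1 stood at 2778 ± 8.41 and 2168 ± 35.8 CPM. The lymphatic endothelial list had none of the 173 either, and of 8 tested genes 1 rose and 3 fell. None of the 4 tested adipocyte genes and the 1 tested hepatocyte gene passed the test in either direction. Of 2 tested genes on the retinal pigment epithelium list 1 rose, and this was Mitf, while 7 of the 12 had 3 or fewer reads in each group. Over all lists, 17 of 463 genes were among the 173, and of 164 other tested genes 66 rose, 49 fell and 49 did not pass. Among all genes tested, listed or not, 21.9% rose and 21.3% fell.

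Some of the genes lay near each other. There were 14 pairs within 100 kb, made up of 22 genes. Gjc3 and Azgp1 were 18.422 kb apart on chromosome 5, Trim63 and Extl1 26.743 kb apart on chromosome 4, and Car6 and Slc2a5 42.846 kb apart on the same chromosome. Pkib, Fabp7 and Smpdl3a followed each other on chromosome 10, and Chpf and Obsl1 were 3 bases apart on chromosome 1. Odf3l1 was 354 bases from Cspg4, which is among the left-out names. Of 379 other tested genes within 100 kb of the 173, 98 rose, or 25.9%, and 56 fell, or 14.8%, and their median log2 fold change was 0.03. Among the 13451 tested genes outside the set and the left-out names, 20.8% rose and 21.6% fell, and the 379 are part of that number.

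The median coefficient of variation of the 173 genes over the 4 LPL overexpression libraries was 11.8%, and 148 genes were under 20%. The true coefficient under counting error alone has a median of 13.4% at these levels. An estimate from 4 libraries tends to fall below the true value, so 11.8% is not read as less than counting error. The thresholds asked for a minimum in each of these same libraries, so the value describes the genes taken. Over all genes with reads, pairs of LPL overexpression libraries differed by more than counting error, with a chi-square per degree of freedom from 1.77 to 3.86. The 5 above 30% were Adcy2, Zic5, Aldh1a3, Azgp1 and Sobp, with mean levels from 0.758 to 1.03 CPM. Adcy2, an adenylyl cyclase, read 0.863, 0.719, 0.682 and 1.85 CPM, and Sobp 0.781, 0.582, 1.12 and 0.545 CPM. Scarf2, a scavenger receptor family gene at the limit of 3 control reads, varied more than its level would give, at 4.64, 2.67, 5.06 and 4.10 CPM. Replicate 1 was the highest library for 62 genes, and replicate 2 for 20.

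**Figure D5:**
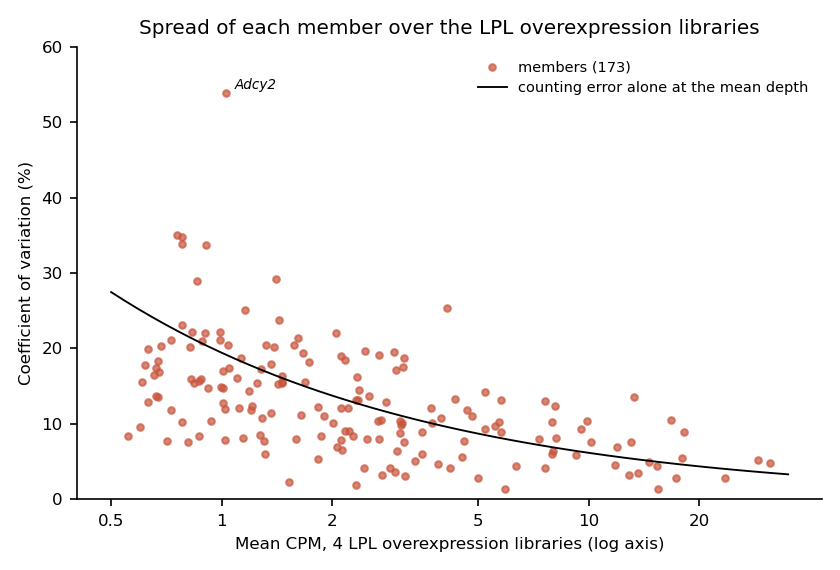
Coefficient of variation over the 4 LPL overexpression libraries (vertical axis, percent) against mean CPM (horizontal log axis), 1 point per gene, with the line that counting error alone gives at the mean depth. Points lie on both sides of the line, which is a true value that 4 libraries tend to estimate low. Adcy2 has the highest coefficient of variation.

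At the thresholds, Sphk1, Qpct and Cela1 were just inside, each with a lowest library of 0.508 CPM. Prorsd1 and Adam23 were just outside with a lowest library of 0.493 CPM, and Dlx6 with 0.482 CPM. Stox2, Scarf2 and Bcan had 3 control reads. Dock3, Slc2a6 and Gm20661 had 4 and were left out, at 3.28 ± 0.128, 1.40 ± 0.117 and 1.18 ± 0.261 CPM.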

How the data were processed

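RNA of 3 control and 4 LPL overexpression libraries was aligned with STAR to mm10, per the submitters' processing notes. The authors deposited read counts per gene for each orientation, and TPM by exonic length, per the file headers; the counter and annotation are not stated. Reverse-orientation counts, 97.0% to 97.1% of reads per library, were used; CPM is relative to their sum. Coordinates are those of the files (mm10), and gene types come from GENCODE release 21. The fit over 13639 genes used edgeR 4.0.16 (R 4.3.3; TMM, filterByExpr, quasi-likelihood test, Benjamini-Hochberg adjustment, threshold 0.05), and was tested on simulated data. Adjusted p-values measure the spread between these libraries only.

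The 173 genes and the 17 marker lists were chosen with earlier results of these data known, and function groups after names were seen. Genes named by rule are the 25 highest with a gene name, and up to 4 per list and 3 per family. They also include the 3 highest with predicted, clone or Riken names, the 3 nearest each threshold on either side and the 3 most variable. Up to 2 other genes per list by adjusted p were named too. Most other names are marked as chosen on their values. Those without a mark include neighbours and relatives named for context, genes that complete a counted set, and Scn1a, Cacna1c, Xlr3c, Gsta1 and Gm3776. DESeq2 1.42.0, other scalings, thresholds, orientations and left-out replicates were the alternatives.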

Additional observations from a re-analysis of the deposited data

Results flagged for a closer look

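In 8 of the 173 genes, 4.62%, and 1 of the group sums, 1 LPL overexpression library lay far from the other 3; chance gives about 1 in 20. Syt9 stood at 3.63 CPM in replicate 2, against 3.96 to 4.01 CPM in the others. Slc2a5 was at 1.92 CPM in replicate 2, against 2.29 to 2.34 CPM. The other 6 genes had a high library. Adcy2 was at 1.85 CPM in replicate 4, against 0.682 to 0.863 CPM, the widest gap of the 8. In the same replicate Pnma2, a neuronal antigen gene, was at 1.60 CPM, against 1.27 to 1.30 CPM, and the stress kinase gene Map3k5 at 1.20 CPM, against 0.781 to 0.822 CPM. The Wnt receptor gene Fzd1 was at 1.73 CPM in replicate 1, against 1.16 to 1.20 CPM, and the phosphatase gene Ptprd at 0.781 CPM, against 0.545 to 0.582 CPM. Tnfrsf19 was at 1.20 CPM in replicate 3, against 0.945 to 0.980 CPM. The muscle and sarcomere genes summed to 9.87 CPM in replicate 1, against 8.32 to 8.53 CPM in the others.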

How the results depend on the processing

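The limits on reads and level set how many genes were taken. Requiring 0 control reads left 109 of the 173; other settings took from 123 genes (a minimum of 1 CPM) to 259 (0.2 CPM). Counts of both orientations took 153, of which 148 were shared with the 173. Leaving out 1 library took 177 to 193 genes. This can only loosen the limits, so that all 173 were kept was fixed in advance. With the groups exchanged, leaving out 1 library took 0 to 1 gene. Over all genes, 2988 were called higher and 2900 lower by edgeR; the alternatives gave 2454 (DESeq2) to 3132 higher and 2231 (DESeq2) to 2863 lower. The fit with a replicate block called 2931 higher and 2863 lower. Same-numbered samples showed no shared deviation (correlations -0.0189, -0.0391 and 0.0193). With so few libraries this does not settle whether the numbers pair them. Levels of the 57 genes named by rule moved by less than 1 SD under TMM, and 6 moved by more with counts of both orientations. They also moved by less than 1 SD with a replicate left out. A mean of 4 libraries cannot move by their SD when 1 is left out, so nothing is read from that. Genes under 1 CPM rest on few reads per library, and a control count of 0 to 3 does not separate no expression from a level below the floor.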
